A study of Macaca mulatta with 8 samples.

Results

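The genes described here cut peptides for MHC class I and load them, and were followed through the cells of macaque retina after gene delivery. They were chosen by symbol as a list of 10, namely PSMB8, PSMB9, PSMB10, PSME1, PSME2, TAP1, TAP2, TAPBP, NLRC5 and B2M, and 8 of them were matched to a feature among the 26533 features counted. TAP1 and TAP2, which form the pump that carries peptides into the endoplasmic reticulum, were not matched to a symbol and were not analysed here. The list was drawn up with the difference between mScarlet blebs and uninjected retina already known, so values of that contrast are a description throughout.

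The proteasome is the barrel-shaped protease that degrades most cytosolic proteins, and its constitutive core carries the catalytic subunits PSMB5, PSMB6 and PSMB7. Under interferon, and at rest in many immune cells, these are replaced in newly built cores by PSMB8, PSMB9 and PSMB10, which gives the immunoproteasome, while PSME1 and PSME2 form the PA28 cap that opens the core. Peptides that reach the endoplasmic reticulum are loaded onto class I heavy chains with the help of tapasin (TAPBP), the finished complex needs B2M as its light chain, and NLRC5 is the transactivator of class I genes. Healthy neurons, photoreceptors among them, are known for low class I expression.

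The 8 libraries came from 2 wild-type male rhesus macaques. NHP1, aged 5 years, had received AAV2-CAG-hRPE65 (CAG is a promoter active in most cell types) in both eyes, and its 2 libraries are labelled uninjected. NHP2, aged 6 years, had 2 separate subretinal blebs in each eye, 1 made with AAV8-GRK1-mScarlet and the other with AAV8-GRK1-hRPGR, and gave 1 library per eye from each bleb and from an uninjected area. GRK1 is a photoreceptor promoter, mScarlet a red fluorescent protein and hRPGR the human gene of a ciliary protein of photoreceptors. By the study's methods every eye was also given triamcinolone, a steroid, under the Tenon capsule, and the left eyes adalimumab, an antibody against tumour necrosis factor, in the vitreous. The uninjected areas therefore lay in treated eyes. The mScarlet and hRPGR vectors also differed in production grade and dose, so insert, grade and dose cannot be told apart, nor can left eye and adalimumab. Each group has 2 libraries, all from 1 animal, so p-values measure the spread between punches of 2 eyes and not between animals.

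Libraries held between 90634306 and 146519011 UMIs (molecules counted by their barcode), and 9562 to 15080 cells were kept in each. Any 2 libraries shared between 1.39% and 2.16% of the cell barcodes of the smaller one. After removal of likely doublets 83192 cells remained in 57 clusters, of which 23 stayed unnamed. The rod-like cells, 3424 to 6136 per library, carried summed rod markers between 31785 and 46162 CPM (UMIs of a gene, scaled to the same total in every class sum). Some libraries went against their labels in transgene UMIs. In rod-like cells the right uninjected library of NHP2 held 179.6 CPM of coRPGR, the feature that counts the hRPGR transgene, against 0 in the left one, the left NHP1 library held 588.9 CPM of huRPE65, and the right mScarlet library held 25.9 CPM of coRPGR. The hRPGR blebs held 3850 (right) and 1390 CPM (left) of coRPGR, and the mScarlet blebs 314.0 (right) and 237.6 CPM (left) of mScarlet.

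On the Mmul_10 build 3 members lie in the MHC region of chromosome 4: TAPBP (136191811 to 136205440, plus strand), PSMB9 (136666685 to 136673727, minus strand) and PSMB8 (136681298 to 136685276, plus strand). B2M (21220625 to 21227670, plus), PSME1 (86223236 to 86227935, plus) and PSME2 (86230950 to 86234260, minus) are on chromosome 7. NLRC5 (44236656 to 44329987, plus) and PSMB10 (55152949 to 55155318, minus) are on chromosome 20. The spans are whole genes, and the counts do not resolve exons. PSMB9 overlaps TAP1 on the opposite strand, with 150 bases between their annotated starts, and PSMB8, PSME1 and B2M overlap LOC106997907, EMC9 and PATL2 on the opposite strand, while TAPBP overlaps ZBTB22 on the same strand. How far the counting could share UMIs between such neighbours was not tested, and those 5 members are uncertain to that extent.

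The 250 bases before each annotated start were searched on both strands for the letters of an interferon-stimulated response element, GAAANNGAAA, which 3.01% of 20769 promoters hold. Of the 8 members 2 held it, and their sequences from the RefSeq annotation of Mmul_10 are shown because they carry a pair of matches each (in capitals). For PSMB10 the stretch is chr20:55155319-55155418 on the minus strand. For B2M it is chr7:21220530-21220559 on the plus strand, where the pair of matches overlap and an exon of PATL2 lies on the opposite strand.
PSMB10: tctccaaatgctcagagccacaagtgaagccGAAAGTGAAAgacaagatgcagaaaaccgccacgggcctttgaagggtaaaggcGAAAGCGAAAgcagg
B2M: actctaaGAAAAGGAAACCGAAAacgggaa
The letters TTCNNNGAA, a gamma-activated site, were in none of the 8 windows and in 5.87% of all, and CCAAT was in those of PSMB9, TAPBP and B2M and in 30.9% of all. These are matches of letters, and no factor's binding was measured. The 2 members with GAAANNGAAA moved very differently in rods, as the values of PSMB10 and B2M show.

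Among the catalytic subunits PSMB9 had the largest difference between areas in rod-like cells. Its level in the NHP2 uninjected area was 2.69 CPM in the left eye and 3.87 in the right. It was 22.0 and 52.4 CPM in the hRPGR blebs, and the mScarlet blebs had 199.5 and 189.2 (CPM of the class sum, with the TMM scaling factor that evens out library composition). The 3 areas of NHP2 did not overlap, and the eyes were close in every area but the hRPGR bleb, where the right was above the left. How many of all genes kept the areas apart was not counted, so nothing is read from areas lying apart, here or below. PSMB8 had 16.5 and 21.5 CPM in the uninjected area, 36.6 and 81.6 in the hRPGR blebs, then 251.7 and 257.0 in the mScarlet blebs, in the same order of eyes and with the same order of areas. PSMB10, the third inducible subunit, stayed low, at 3.79 and 4.21, 4.505 and 5.00, and 7.33 and 5.79 CPM. The fitted log2 difference between mScarlet blebs and uninjected area in rods was 5.87 (SE 0.46) for PSMB9, 3.74 (SE 0.37) for PSMB8 and 0.71 (SE 0.18) for PSMB10. In bulk sums of a class, fewer cells that express a gene and less RNA per cell cannot be told apart.

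**Figure D1:**
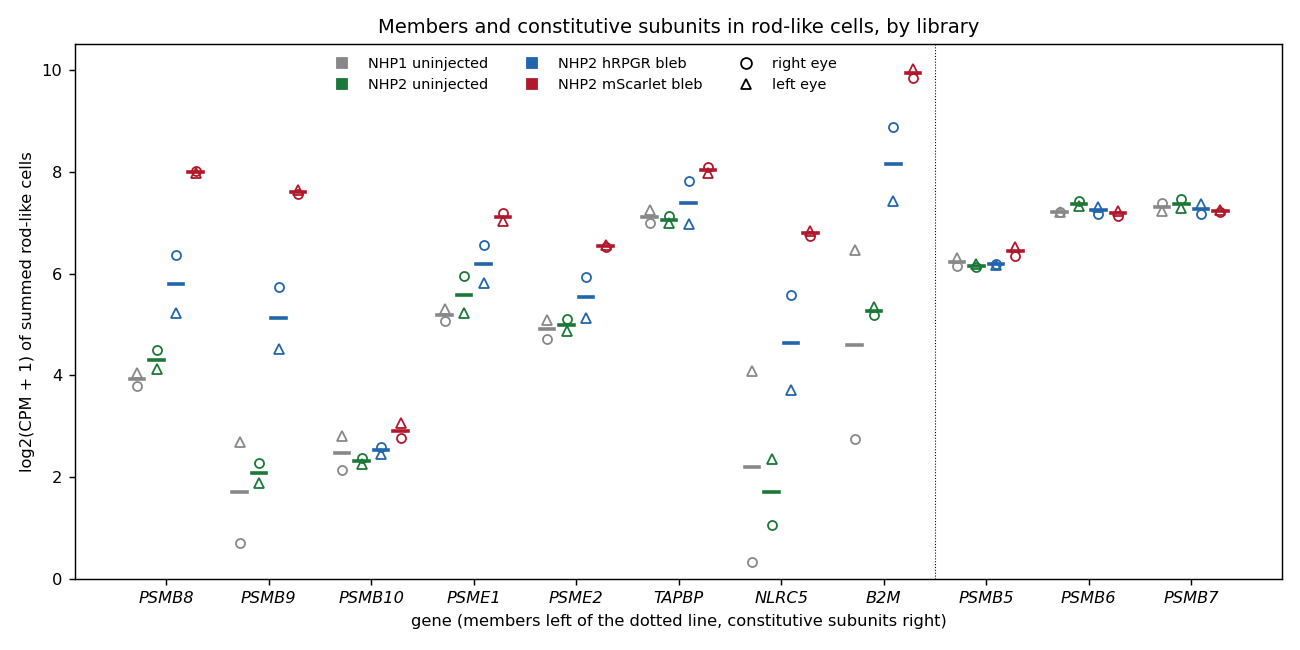
Level of each member in rod-like cells as log2(CPM + 1), 1 point per library, by area and eye. The mScarlet points of PSMB8, PSMB9, NLRC5 and B2M lie above those of every other area, while the PSMB10 points stay between 3.38 and 7.33 CPM in all 8 libraries.

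The PA28 genes moved less. PSME1 had 36.2 (left) and 60.7 CPM (right) in uninjected rods, 55.4 and 93.9 in the hRPGR blebs, then 130.7 and 145.5 in the mScarlet blebs. PSME2 had 28.3 and 33.3, then 34.0 and 60.4, then 93.1 and 91.3 CPM. For both genes the mScarlet blebs lay above all other areas, and for PSME1 the uninjected and hRPGR ranges overlapped. TAPBP had 127.2 and 138.6 CPM in the uninjected area, 124.2 and 225.9 in the hRPGR blebs, then 251.2 and 273.8 in the mScarlet blebs, so its left hRPGR bleb lay below both uninjected libraries. The mScarlet difference was 1.51 (SE 0.30) for PSME1, 1.58 (SE 0.25) for PSME2 and 0.98 (SE 0.25) for TAPBP on the log2 scale.

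The light chain B2M had 39.6 (left) and 35.3 CPM (right) in uninjected rods, 171.8 and 470.6 in the hRPGR blebs, then 1044 and 915.6 in the mScarlet blebs. NLRC5 had 4.13 and 1.09 CPM, then 12.1 and 46.7, then 112.9 and 106.4. Both genes kept the areas apart, with the hRPGR bleb between the others in each eye. Their mScarlet differences were 4.71 (SE 0.48) for B2M and 5.45 (SE 0.80) for NLRC5. Over the 8 members the median difference was 2.66, beside a median of 0.00017 over all 14557 genes tested in rods. Of the members, 5 (B2M, NLRC5, PSMB8, PSMB9 and PSME2) passed edgeR's quasi-likelihood test at a Benjamini-Hochberg adjusted p of 0.05 over all genes, where 1.07% of genes did. As the members were chosen with this contrast known, nothing is read from that count. With the eye as a replicate block 0 members passed in rods, and so did 0 of the 14557 genes. Without the block 8 members had passed at an unadjusted p of 0.05, as had 3163 of the genes. The count of members that passed the adjusted threshold was also 0 without either mScarlet or either uninjected library (0% to 0.0596% of genes), and 7 without the left (7.26%) or right hRPGR library (7.83%). Subtracting 10% of each sum as free RNA, or counting unnamed rod clusters as rods, left 3 (0.886% and 0.169% of genes).

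Other cells than photoreceptors, which the GRK1 promoter is not meant to drive, had some members called higher in the mScarlet blebs as well, in bipolar, horizontal and amacrine cells. All 8 fitted differences were above 0 in each of the 7 classes tested (within the right eye alone PSME1 was at -0.46 in amacrine cells and -0.11 in Müller glia), with medians of 2.59 in cone-like, 1.94 in bipolar-like, 1.96 in Müller glia-like, 2.64 in horizontal-like, 1.46 in amacrine-like and 0.85 in myeloid-like cells. The medians over all genes lay between -0.0243 and 0.0097 in the 7 classes. The test was passed by 4 members in cones, bipolar and horizontal cells each (B2M, NLRC5, PSMB8 and PSMB9 in all of them) and by NLRC5 and PSMB9 in amacrine cells, and by 0 in Müller glia and myeloid cells. In those last 2 classes 4 and 5 had an unadjusted p under 0.05, beside 1940 of 12955 and 1673 of 10534 genes. DESeq2 called 1 in each of them (beside 3.42% and 3.34% of genes). The shares of all genes called were 0.789% in cones, 0.719% in bipolar, 1.29% in horizontal, 0.0456% in amacrine, 0.316% in Müller glia and 1.45% in myeloid cells. Without the right uninjected library, the one with coRPGR, 4 members passed in Müller glia beside 4.29% of genes in that fit. Without the left uninjected library 0 passed in amacrine cells (0% of genes), and without the left mScarlet library 2 passed in horizontal cells (0.161%).

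In cone-like cells PSMB9 had 0.178 (left) and 2.73 CPM (right) in the uninjected area, 5.06 and 7.17 in the hRPGR blebs, then 89.6 and 86.7 in the mScarlet blebs. PSMB8 had 6.04 and 8.68, 16.8 and 25.0, and 152.6 and 137.9 CPM there. B2M was at 8.88 and 12.1, 27.2 and 87.1, and 309.6 and 331.7 CPM. All areas stayed apart for these genes, as they did in rods, at lower levels of each gene. The uninjected PSMB9 values rested on 1 (left) and 17 UMIs (right). B2M of the mScarlet cones lay below free RNA of the same library in the left eye (650.5 CPM) and above it in the right (293.0). Without the features that dominate free RNA (1470 and 903 CPM) it lay below in both.

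In Müller glia, the radial support cells of the retina, the eyes of the uninjected area were far apart. Their B2M was at 186.9 CPM in the left and 1088 in the right uninjected library, 885.8 and 1771 in the hRPGR blebs, then 3215 and 2474 in the mScarlet blebs. PSMB9 was at 9.36 and 88.8, 47.3 and 119.5, and 234.3 and 161.3 CPM. In these cells the uninjected and hRPGR ranges overlapped for both genes, since the right uninjected library was above the left hRPGR bleb. The right uninjected library is the one with coRPGR UMIs, whose part in these values was not tested.

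Bipolar cells, which carry the photoreceptor signal onward, had PSMB9 at 2.58 (left) and 9.85 CPM (right) in the uninjected area, at 27.2 and 35.2 for the hRPGR blebs, and at 142.2 and 100.2 for the mScarlet blebs. Their PSMB10 was at 11.8 and 7.20, 9.54 and 9.41, and 19.9 and 14.4 CPM, so only the mScarlet values lay above both uninjected ones. Amacrine cells, inhibitory interneurons of the inner retina, had lower PSMB9, at 2.06 and 4.14, 10.4 and 13.9, and 29.99 and 38.3 CPM. NLRC5 in amacrine cells was at 0.514 and 0 CPM in the uninjected area, 17.3 and 16.1 for the hRPGR blebs and 38.0 and 47.5 for the mScarlet blebs, and no fold is given against libraries so near 0. The areas stayed apart for PSMB9 in both classes. In amacrine cells this rested on 4 (left) and 2 UMIs (right) in the uninjected area and on 9 and 19 in the hRPGR blebs.

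Horizontal cells had PSMB8 at 5.83 (left) and 29.5 CPM (right) in the uninjected area, at 176.7 and 62.1 for the hRPGR blebs, and at 253.3 and 174.2 for the mScarlet blebs. Here the left hRPGR bleb was above the right one, the reverse of the order in rods. PSMB10 was at 5.83 and 5.36, 12.01 and 24.0, and 36.0 and 14.0 CPM, with the hRPGR and mScarlet ranges overlapping. Its uninjected values rested on 4 (left) and 6 UMIs (right). These classes held few cells, in the case of horizontal cells 51 (left) and 71 (right) in the uninjected area. The hRPGR blebs held fewer horizontal cells, 35 (left) and 58 (right), the left one near the minimum of 30.

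**Figure D2:**
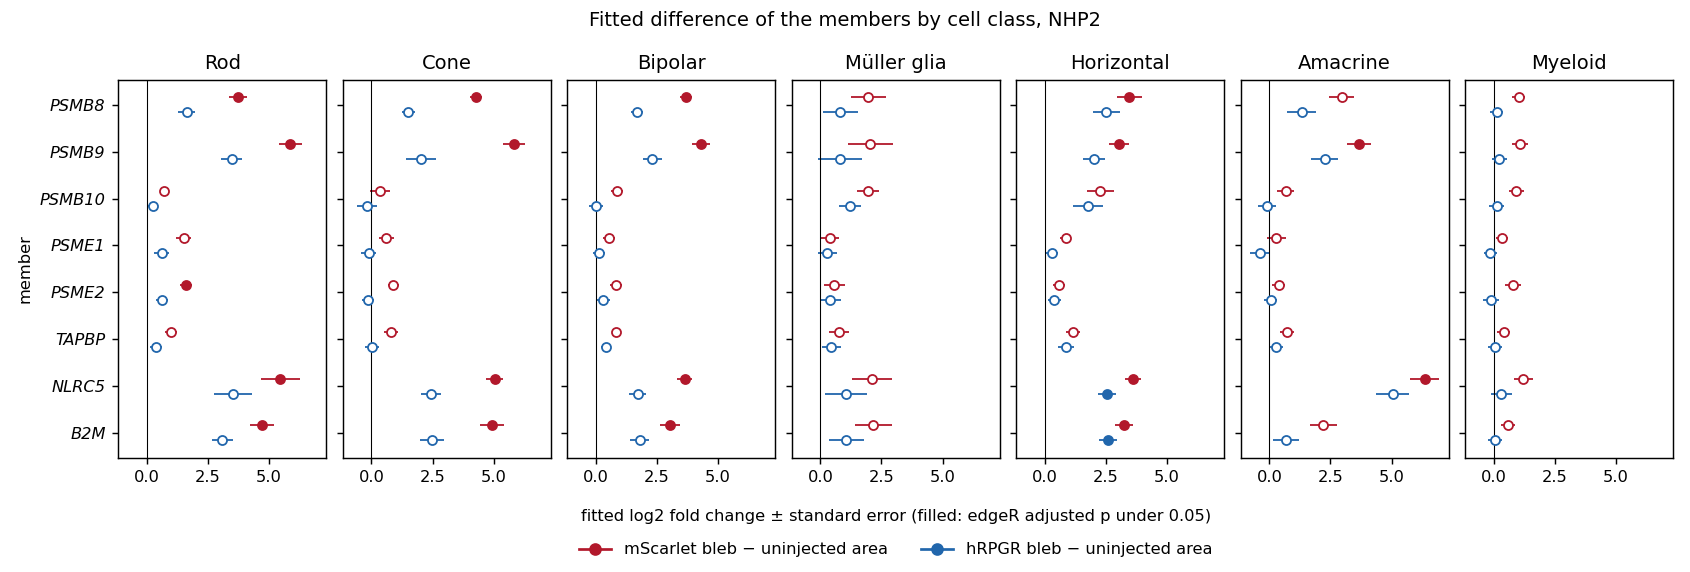
Fitted log2 difference (x axis) of each member (y axis) in 7 cell classes of NHP2, for the mScarlet bleb (red) and the hRPGR bleb (blue) each against the uninjected area, with bars of 1 standard error and filled points where the edgeR adjusted p was under 0.05. Every red point lies above 0, 19 of the 56 are filled, and 2 blue points are filled, both in horizontal-like cells. NLRC5 in amacrine-like cells rests on libraries near 0 in the uninjected area, so its position depends on the prior count of the fit.

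The contrast of hRPGR blebs against the uninjected area has the same control libraries as the one known when the members were chosen. Earlier results of these data were also known then, so this contrast is not independent of that choice. Its test was passed by 2 of 56 member and class combinations. Both were in horizontal cells, the inhibitory interneurons that contact photoreceptors, where 0.148% of genes passed. B2M was there at 42.3 (left) and 147.4 CPM (right) in the uninjected area, at 578.3 and 602.0 in the hRPGR blebs and at 993.4 and 867.4 in the mScarlet blebs. NLRC5 was at 7.29 and 14.3, 53.2 and 79.1, and 162.1 and 118.1 CPM. The hRPGR values of both genes lay above both uninjected values and below both mScarlet values. The hRPGR differences were 2.57 (SE 0.36, edgeR adjusted p 0.0112) for B2M and 2.55 (SE 0.36, edgeR adjusted p 0.0112) for NLRC5. Both calls stood with the eye as a block, and 0 members passed in horizontal cells without the right hRPGR library. The NLRC5 call stood and that of B2M was lost without the left hRPGR library, without the left mScarlet library and with doublets kept (edgeR adjusted p 0.0795, 0.0542 and 0.0602).

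In rods the hRPGR differences were 3.47 (SE 0.43, edgeR adjusted p 0.616) for PSMB9, 3.54 (SE 0.77, edgeR adjusted p 0.795) for NLRC5, 3.09 (SE 0.45, edgeR adjusted p 0.616) for B2M and 1.62 (SE 0.35, edgeR adjusted p 0.795) for PSMB8. None of the 8 members passed, and neither did any of the 14557 genes (0%), although 5 members and 751 genes had an unadjusted p under 0.05. DESeq2 called 2 members in rods beside 0.522% of genes. The call in rods depended on the left hRPGR library, without which 6 members passed beside 1.28% of genes, as did 3 in cones (0.375%) and 3 in bipolar cells (0.255%). Without the right uninjected library, the one with coRPGR, 4 passed in bipolar cells (0.172% of genes). All 8 rod differences were above 0, with a median of 1.12 beside -0.0069 over all genes, and TAPBP, at 0.39, went to -0.095 without the right hRPGR library. In cones 0 members passed beside 0.0173% of genes, with 4 at an unadjusted p under 0.05 (703 of 11540 genes) and 2 called by DESeq2 (0.338% of genes). In bipolar cells 0 passed beside 0% of genes, with 4 at an unadjusted p under 0.05 (481 of 12927 genes) and 1 called by DESeq2 (0.0696% of genes). In Müller glia 0 passed beside 0.00772%, and in amacrine and myeloid cells 0 beside 0%, with 1, 3 and 0 members at an unadjusted p under 0.05 and 0 by DESeq2. Genes at such an unadjusted p numbered 520 of 12955, 321 of 10953 and 633 of 10534 there.

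The mScarlet and hRPGR blebs were compared directly as well, a contrast that shares libraries with both others. The choice of members was made knowing the mScarlet libraries to be high and so favours a higher level there, and these values too are a description from which nothing is read. All 56 differences were above 0, that is, higher in the mScarlet blebs, and 5 were past the threshold of edgeR's test, 3 in cones and 2 in bipolar cells. Within the right eye alone 7 of them were below 0, for PSMB10 (-0.17), PSME1 (-0.26), PSME2 (-0.22) and TAPBP (-0.22) in Müller glia, PSMB10 (-0.74) and PSME2 (-0.030) in horizontal cells and TAPBP (-0.049) in myeloid cells. In cones, where 0.139% of genes passed, the calls were PSMB9 (3.81, SE 0.37), PSMB8 (2.77, SE 0.21) and NLRC5 (2.61, SE 0.28). In bipolar cells, where 0.0696% passed, they were PSMB8 (1.99, SE 0.21) and NLRC5 (1.92, SE 0.27). With the eye as a block the NLRC5 call in bipolar cells was lost and the other 4 stood. PSMB8 was in bipolar cells at 35.4 (left) and 44.9 CPM (right) in the hRPGR blebs and at 175.2 and 140.7 in the mScarlet blebs, and NLRC5 at 21.2 and 33.6 against 113.1 and 88.6. In rods 0 members and 0% of genes passed, with 7 members at an unadjusted p under 0.05 (1123 of 14557 genes) and 3 called by DESeq2 (0.955% of genes). In horizontal, Müller glia, amacrine and myeloid cells 0 members passed beside 0.169%, 0.00772%, 0% and 0.18% of genes, with 4, 0, 5 and 5 at an unadjusted p under 0.05 and 0 by DESeq2. Genes at such an unadjusted p numbered 580 of 9481, 1482 of 12955, 469 of 10953 and 1157 of 10534 there. Leaving out the right hRPGR library gave 6 calls in rods, beside 1.32% of genes in that fit. Leaving out either mScarlet library left 1 in cones (0.0985% of genes without the left, 0.0508% without the right) and 0 in bipolar cells (0.00754% and 0.0226%).

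The share of an inducible subunit in its pair with the constitutive subunit it replaces sets both against each other within a library, and as the kit counts 1 end of each transcript it needs no correction for length. In rods PSMB8 made up 18.7% (left) and 23.8% (right) of the PSMB8 and PSMB5 UMIs in the uninjected area, 34.0% and 53.0% in the hRPGR blebs, then 73.5% and 76.1% in the mScarlet blebs. PSMB9 made up 1.65% and 2.21% of the PSMB9 and PSMB6 UMIs, then 12.2% and 26.8%, then 57.1% and 57.6%. PSMB10 made up 2.39% and 2.35% of the PSMB10 and PSMB7 UMIs, then 2.67% and 3.38%, then 4.604% and 3.79%. The PSMB10 share in rods thus stayed under 5% where the other 2 shares were over 50%. In Müller glia it was 6.31% and 10.6% in the uninjected area and 31.9% and 19.6% in the mScarlet blebs, and in myeloid cells of NHP2 it lay between 41.9% and 64.9%. These shares rest on RNA and say nothing of assembled proteasomes.

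**Figure D3:**
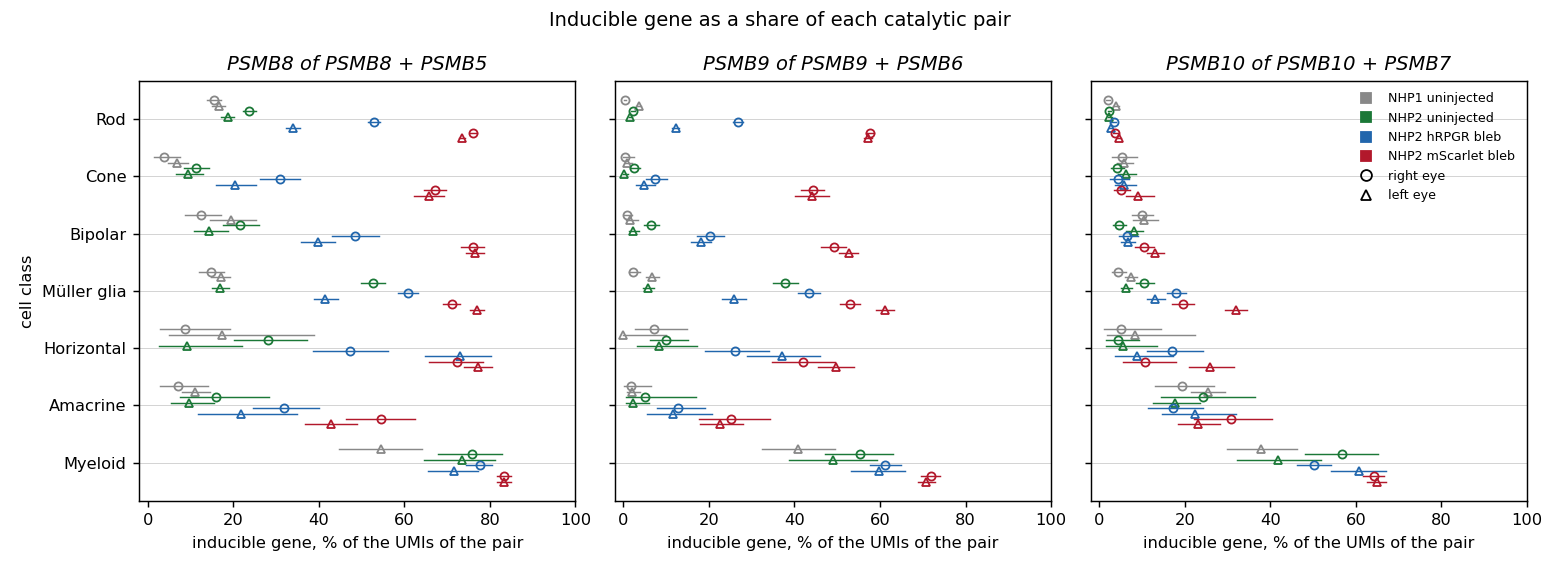
Percent of the UMIs of an inducible and a constitutive catalytic subunit that belong to the inducible one, 1 point per library with its 95% Clopper-Pearson interval, by cell class and area. In rods the PSMB8 and PSMB9 shares of the mScarlet blebs lie between 57.1% and 76.1%, and the PSMB10 share lies under 5%.

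The constitutive subunits themselves lay in narrow ranges in rods. PSMB5 was between 68.7 and 90.9 CPM, PSMB6 between 139.5 and 170.8 and PSMB7 between 142.8 and 175.4 over all 8 libraries. Of the rest of the proteasome, the other 11 core subunits, the 17 genes of the 19S regulatory particle and 8 further activators and assembly factors, 0 were called in any of the 7 classes by edgeR in any contrast of areas. In rods the median mScarlet differences were 0.08 for the core subunits and 0.02 for the 19S genes. Among 8 genes of peptide trimming and folding in the endoplasmic reticulum 1 was called in rods, TAPBPL, a tapasin relative that edits peptides, at 0.89 (SE 0.14, edgeR adjusted p 0.0492). Among transcription factors of class I genes IRF1, an interferon-induced activator, was called in rods at 2.86 (SE 0.43, edgeR adjusted p 0.0479) and also in cones (3.36), bipolar (3.23), Müller glia (2.57) and horizontal cells (4.42). IRF2, which binds the same elements, was called in rods at 0.96 (SE 0.11, edgeR adjusted p 0.0333). With the eye as a block, where 0 genes passed in rods, the rod calls of TAPBPL, IRF1 and IRF2 were lost. For the hRPGR blebs IRF1 was the only factor of that list called, in horizontal cells at 3.54 (SE 0.55, edgeR adjusted p 0.0221), where the B2M and NLRC5 calls also lay. Between the mScarlet and hRPGR blebs it was IRF1 again, in bipolar cells at 1.43 (SE 0.20, edgeR adjusted p 0.0488), where 0.0696% of genes passed.

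The heavy chains that B2M pairs with are genes of similar sequence, so UMIs may be split among their features. Only the 5 features with a heavy chain symbol are counted here. Class I features without a symbol, some of which the paper names, are not among them. Mamu-B had 32.0 (left) and 10.8 CPM (right) in uninjected rods, 242.5 and 663.7 in the hRPGR blebs, then 1658 and 1561 in the mScarlet blebs. MAMU-A had 23.9 and 8.05, then 143.0 and 430.2, then 904.1 and 804.9 CPM. MAMU-E, whose product is read by NK cells, had 7.48 and 17.3, then 43.9 and 161.5, then 409.6 and 384.4 CPM. All of them kept the order of areas seen for B2M. For the mScarlet blebs the test was passed by 3 of 5 features in rods (1.07% of all genes), 2 of 3 tested in cones (0.789%), 5 of 5 in bipolar cells (0.719%) and 3 of 3 tested in horizontal cells (1.29%). It was passed by 1 of 5 in Müller glia (0.316%) and 1 of 5 in myeloid cells (1.45%), MAMU-F in both, and by 0 of 4 tested in amacrine cells (0.0456%). For the hRPGR blebs it was passed by Mamu-B (3.33) and MAMU-A (3.24) in horizontal cells (0.148%). Between the mScarlet and hRPGR blebs 1 of 30 heavy chain and class combinations passed (0% to 0.18% of all genes by class). The 3 rod calls were lost with the eye as a block.

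Levels of 1 gene can be set side by side across classes on CPM without the TMM factor, which is set within each class. In the mScarlet blebs B2M was highest in T/NK-like cells (8859 ± 63.7 CPM, SD, n = 2), then in myeloid cells (7024 ± 25.7) and Müller glia (2946 ± 500.4). Rods (1023 ± 115), horizontal cells (930.4 ± 106) and bipolar cells (786 ± 164) overlapped in that order with their neighbours, and amacrine cells (444 ± 52.0) and cones (341 ± 8.94) followed. In the uninjected area, where T/NK-like cells were too few to rank (24 in the right library, with a minimum of 30), the order began with myeloid cells (4825 ± 560), then Müller glia (622 ± 617), and cones (10.3 ± 2.20) were again last, below rods (37.0 ± 4.79). The rods of the mScarlet blebs were thus still below the myeloid cells of the uninjected area in B2M. TAPBP was highest in rods in the mScarlet blebs (274 ± 11.3), above T/NK-like (206 ± 4.95) and myeloid cells (204 ± 31.0), which overlapped, and was second to myeloid cells in the uninjected area (131 ± 1.64 against 159 ± 3.98). PSMB10 was lowest in rods in both areas, at 6.86 ± 1.27 and 3.94 ± 0.10 CPM, overlapping cones in the first.

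**Figure D4:**
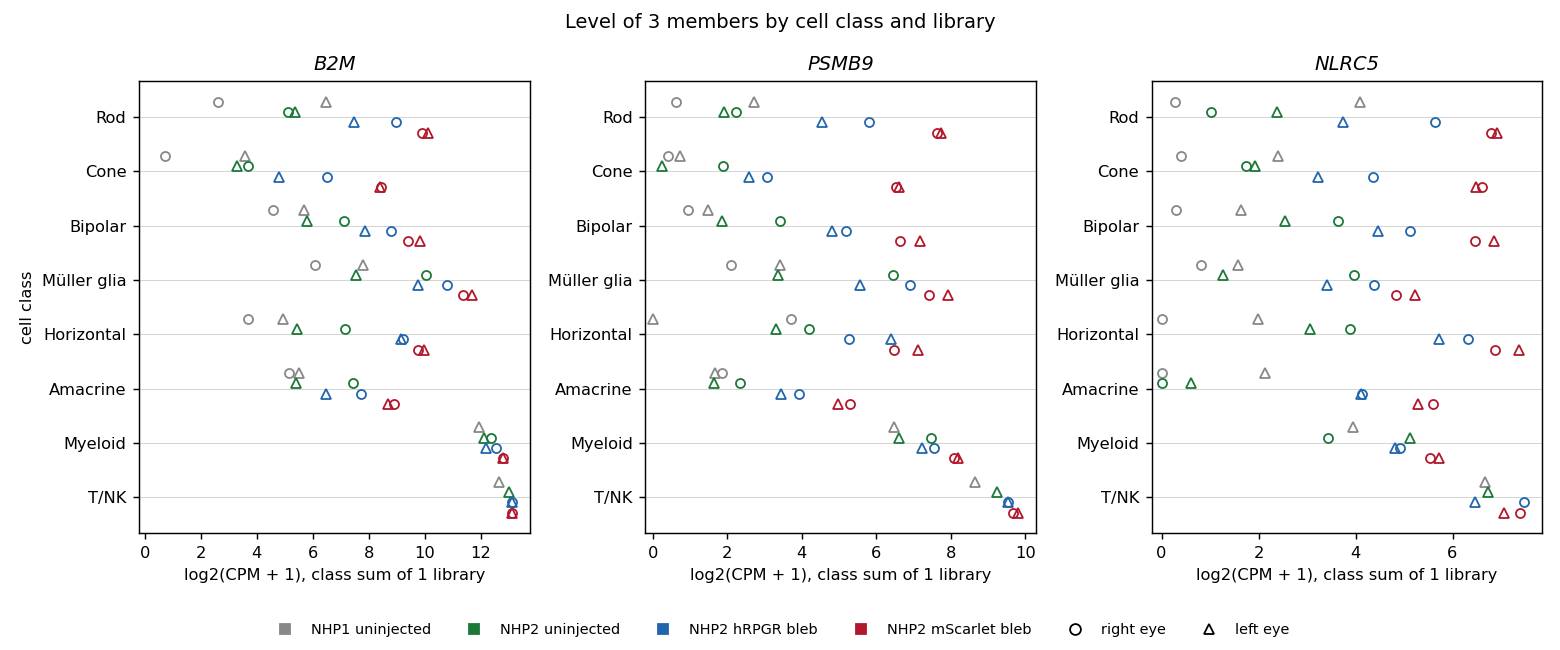
Level of B2M, PSMB9 and NLRC5 as log2(CPM + 1) in 8 cell classes, 1 point per library, coloured by group and shaped by eye. CPM are without the TMM factor. T/NK-like and myeloid-like cells lie highest for B2M in the hRPGR and mScarlet blebs, and the points of the 3 areas of NHP2 lie apart in rods and cones.

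In myeloid cells, which hold class I at rest, B2M was at 4221 (left) and 5469.9 CPM (right) in the uninjected area, 4736 and 5499 in the hRPGR blebs, then 7433 and 7409 in the mScarlet blebs, and PSMB10 at 83.9 and 161.1, 144.9 and 126.5, and 244.0 and 230.4. The uninjected and hRPGR ranges overlapped for both genes, and the mScarlet blebs lay above them.

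The level of a member can be spread over few or many cells, so each rod-like cell was thinned to 3000 UMIs, and the share of cells with at least 1 UMI was taken. For B2M it was 10.1% (95% Clopper-Pearson interval 9.12 to 11.1) in the left and 8.61% (7.88 to 9.39) in the right uninjected area, 29.2% (27.9 to 30.5) and 72.1% (70.7 to 73.4) in the hRPGR blebs, and 93.5% (92.8 to 94.2) and 91.0% (90.1 to 91.9) in the mScarlet blebs. For PSMB9 it was 0.756% and 1.06%, then 5.20% and 14.97%, then 43.5% and 40.7%. For NLRC5 it was 1.15% and 0.274%, then 3.11% and 12.6%, then 25.4% and 24.1%. Unthinned, the B2M shares were 17.4% and 15.6%, 38.4% and 84.2%, and 97.3% and 96.0%. Between 469 and 967 cells per NHP2 library were left out as too shallow. The intervals cover counting error only. Free RNA, read from barcodes with 100 to 1000 UMIs, held B2M at 65.8 (left) and 66.2 CPM (right) in the uninjected area, 124.5 and 539.4 in the hRPGR blebs, then 650.5 and 293.0 in the mScarlet blebs. Without the 2 features that dominate free RNA these became 87.0 and 174.3, 275.0 and 766.4, and 1470.4 and 903.0 CPM. Free RNA therefore moved with the areas as well. Its B2M CPM was above that of the rods in both uninjected libraries and the right hRPGR bleb, and without those features also in the left hRPGR and left mScarlet blebs. Cones of the same uninjected libraries, thinned alike, had a B2M UMI in 1.93% (0.838 to 3.77, left) and 4.74% (2.78 to 7.47, right) of cells, below the rods of each eye (median depth before thinning 13203 and 17558 UMIs in cones, 6513 and 5528 in rods).

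**Figure D5:**
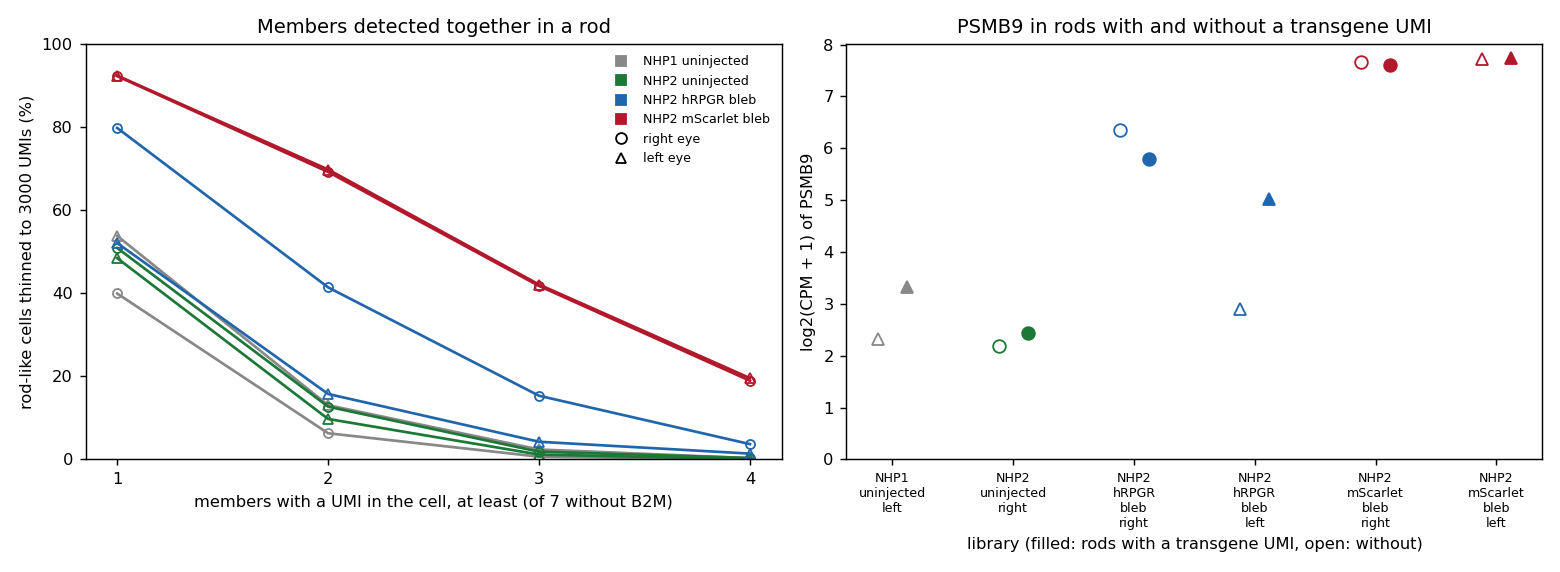
Left, percent of rod-like cells thinned to 3000 UMIs (y axis) in which at least 1, 2, 3 or 4 of the 7 members other than B2M had a UMI (x axis), 1 line per library; at 3 the mScarlet libraries lie at 41.8% and 42.1% and the NHP2 uninjected ones under 2%. Right, level of PSMB9 as log2(CPM + 1) in rods with (filled) and without (open) a UMI of the library's transgene, where the points of the left hRPGR bleb lie apart and those of the mScarlet blebs lie together.

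Members were also counted together in the same thinned rods. At least 3 of the 7 members other than B2M were seen in 42.1% (left) and 41.8% (right) of mScarlet rods, 4.26% and 15.3% of hRPGR rods and 1.18% and 1.86% of uninjected rods. At least 1 of them was seen in 92.4% and 92.3%, 52.1% and 79.8%, and 48.5% and 50.9%. Both hRPGR blebs lay between the uninjected area and the mScarlet blebs on both counts, the left one lower than the right.

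Within the hRPGR blebs the eyes differed, and the rods of the left bleb were of more than 1 kind. There PSMB9 was at 31.5 CPM in the 3211 thinned rods with a coRPGR UMI and at 6.43 in the 1769 without, and B2M at 233.5 and 68.8. In the right hRPGR bleb PSMB9 was at 54.6 CPM in 4023 rods with and 80.7 in 125 without a coRPGR UMI. In the mScarlet blebs PSMB9 was at 211.9 and 209.9 (left) and at 192.6 and 200.8 CPM (right) in rods with and without an mScarlet UMI. The difference by transgene UMI was therefore seen in the left hRPGR bleb and not in either mScarlet bleb. In the right uninjected library rods with a coRPGR UMI had 4.42 CPM of PSMB9 and those without had 3.57. A cell without a UMI of the transgene may still carry it. This weighs more in the mScarlet blebs, whose rods held mScarlet at 237.6 (left) and 314.0 CPM (right). Rods of the left hRPGR bleb held coRPGR at 1390 CPM. The split is thus less able to show a difference in the mScarlet blebs, and the vectors are not compared on it.

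Rods of NHP2 were taken in 2 sets of clusters, made without the members, listed interferon-response genes and MHC genes with a symbol. Features without a symbol that the paper lists under class I presentation were not left out, so the clusters may rest on them in part. The sets were picked by area, as rod clusters of over 1000 NHP2 cells with more than 5 times as many mScarlet as uninjected cells (the first set) or the reverse (the second), which favours high mScarlet shares in the first and high uninjected shares in the second. The first set of 3 clusters held 98.0% (left) and 94.8% (right) of mScarlet rods, 22.8% and 88.8% of hRPGR rods and 2.73% and 0.391% of uninjected rods, and the second 0.576% and 0.710%, 74.5% and 5.12%, and 89.2% and 97.1%. In the first set PSMB9 was at 74.4 and 56.4 CPM in the hRPGR blebs, then 212.1 and 197.1 in the mScarlet blebs. In the second it was at 6.13 in the left hRPGR bleb and at 2.08 and 3.51 in the uninjected area, and in the few other rods of that set at 31.6 in the right hRPGR bleb (262 cells) and at 146.9 and 112.1 in the mScarlet blebs (32 and 34 cells). Within the first set the left hRPGR bleb, low in the class sum, was thus above the right one in PSMB9, but B2M was at 496.7 and 494.6 CPM there, and TAPBP (173.8 and 232.5) and NLRC5 (43.6 and 50.9) were lower in the left. Only 117 uninjected rods of the left eye lay in the first set, with PSMB9 at 22.0 CPM.

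Left and right eyes of NHP2 were compared with the area in the model. Of the 56 differences 48 were below 0, that is, lower in left eyes, and 0 passed edgeR's test, while 10 had an unadjusted p under 0.05 and DESeq2 called 0. Medians over all genes lay between -0.0087 and 0.0026 by class. Genes at such an unadjusted p ran from 140 of 14557 in rods to 664 of 10953 in amacrine cells. The areas did not all go 1 way. In the mScarlet blebs B2M was higher in the left eye in rods and Müller glia, while PSMB8 and PSME1 in rods were lower there. In rods 0% of genes passed, and the largest member differences were -0.55 (SE 0.26, edgeR adjusted p 1) for PSMB9 and -0.54 (SE 0.14, edgeR adjusted p 1) for PSME1. In cones 0.00867% and in bipolar cells 0.0464% of genes passed, and 0% in the other classes. The uninjected area of NHP2 was set against NHP1, which is 1 animal against another of other age and vector history. Different clusters held most of their rods (c5, c7 and c27 in NHP1, c41, c44 and c51 in NHP2) and cones (c4 and c46). Of 41 tests 0 passed, with 9 at an unadjusted p under 0.05 and 0 by DESeq2, beside 1.74% of genes called in rods, 1.53% in cones, 0.0637% in bipolar cells, 0.0231% in Müller glia, 0.134% in horizontal and 0.108% in amacrine cells. Genes at such an unadjusted p ran from 388 of 11103 in amacrine cells to 2638 of 13846 in rods. The rod values of NHP1 lay far apart, with B2M at 86.7 (left) and 5.76 CPM (right) and NLRC5 at 15.9 and 0.250, so that both NHP2 uninjected values of each lay between them. The left NHP1 library is the one with huRPE65 UMIs, and there B2M was at 141.8 CPM in the 1027 rods with such a UMI and 62.5 in the 2143 without. With the eye as a replicate block 7 of the 41 passed, 4 of them in rods, where the share of all genes that passed was 22.3%.

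The genes whose level followed the mean log2 CPM of the members most closely were sought as a description. Over 55 class sums of the fitted classes and 12242 genes these were Mamu-B (Pearson r 0.958) and MAMU-A (0.939). Between them lay 3 features without a symbol (0.947 to 0.957), which the paper lists under class I presentation. Over the 8 rod sums and 9845 genes the closest were HDAC10 (0.999), YRDC (0.995), BTG1 (0.995), CSK (0.989) and DEGS1 (0.989). The points share libraries and depth, and the rod sums share the animal and the areas. Among the members themselves B2M (0.979), PSMB8 (0.968) and PSMB9 (0.965) lay closest to the mean over all classes, and PSMB10 (0.703) and TAPBP (0.621) farthest. That mean contains the member itself, so these r are not comparable with those of other genes. The CPM here carried the TMM factor, which is set within each class.

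Markers of other cells moved with the areas in part. In rods the 10 myeloid markers summed to 3.31 to 4.96 CPM in the uninjected area, 6.05 to 19.5 in the hRPGR blebs and 10.0 to 12.5 in the mScarlet blebs. The 8 T/NK markers summed to between 7.02 and 9.02 CPM in all 3 areas, most of it CD3E, with CD3D and KLRD1 at 0 or under 0.1. The 5 plasma cell markers summed to 71.0 to 76.5, 104 to 184 and 220 to 282 CPM, nearly all of it JCHAIN, the joining chain of antibodies. In Müller glia the myeloid list summed to 444 to 568, 727 to 775 and 1062 to 1113 CPM, nearly all of it LYZ, lysozyme. Their part in the members' values was not tested.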

How the data were processed

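Retinal punches were profiled with a 10x Genomics 5′ droplet kit. The deposited values are UMI counts, from Cell Ranger 8.0.1, of each feature in each barcode, for which the authors had added 3 transgene features to Mmul_10; per the file headers they are whole numbers without normalization, and the barcodes are unfiltered. The files name 16678 features by symbol, a gene table gave 564 more, and none matched TAP1 or TAP2. No column of any other sample was present (0).

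Cells were barcodes of 1500 or more UMIs and 300 or more genes whose mitochondrial share did not exceed 20% (91796 cells). Likely doublets were the cells with the highest Scrublet scores, 0.8% per 1000 cells of a library (8604). Clustering in scanpy 1.11.5 (3000 variable genes, 40 components, 15 neighbours, leiden resolution 2) still included them, and they were removed afterwards. It left out 71 features, which were listed interferon genes, MHC genes with a symbol, members and transgenes, so that clusters do not rest on those. Class I features without a symbol were not left out, and clusters may rest on them in part. The ambient correction and integration of the study were not applied. A cluster was named from marker genes of 15 classes where at least 3 were raised and its score reached 2 times the next. It also needed an own marker among its 10 leading genes, with no other class having more there. A doublet share over 30%, or haemoglobin among those genes, left it unnamed. Unnamed cells made up 11.7% (left hRPGR bleb) to 52.6% (left NHP1) of a library. Some unnamed clusters scored highest as rods and were uneven between libraries. Of these, c3 had 1816 of 3133 cells from the right hRPGR bleb, and c50 had 2534 of 3173 from the left NHP2 uninjected area. The naming rules were set after looking at clusters, and differences from the study may come from rebuilt names. Features ENSMMUG00000055690 and ENSMMUG00000062077 took 8.18% and 4.29% of class UMIs and 29.9% and 16.0% of free RNA (barcodes of 100 to 1000 UMIs).

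UMIs were summed by class and library, in classes with at least 30 cells in each library, and tested over all genes with edgeR 4.0.16 (R 4.3.3; filterByExpr, TMM, quasi-likelihood F test) at a Benjamini-Hochberg adjusted p of 0.05, the 6 NHP2 libraries sharing 1 dispersion estimate. SE is the log2 difference over the root of F. DESeq2 1.42.0 was an alternative. Both were run on simulated counts with known changes, drawn independently, with the same dispersion for every gene and no pairing by eye. That setting is simpler than these libraries, so nothing about the reliability of the calls is read from it. Alternatives covered normalization, the low-count filter, depth, doublets, unnamed clusters, free RNA, the eye as a replicate block and each library left out. The eye pairs the libraries, as the labels give right and left eyes of 1 animal; correlations of left minus right differences between areas ran from -0.358 to 0.262, so the eyes did not deviate together in every class. Shares are of cells thinned to 3000 UMIs, with exact Clopper-Pearson intervals at 95%.

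The members, the gene lists and the markers were chosen with earlier results of these data known. Named were all members, PSMB5, PSMB6 and PSMB7, the 3 heavy chains of highest mean CPM, and MAMU-F where it alone was called. Also named were up to 4 called genes of lowest p in each other list, and the 5 genes most like the members by Pearson r (mean of at least 5 CPM). Genes named as cell markers, JCHAIN and LYZ among them, were chosen after their values were seen.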

Additional observations from a re-analysis of the deposited data

Results flagged for a closer look

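A signal outside the comparisons, transgene UMIs in libraries where the label names no such vector, was present in rod-like cells of 3 libraries. coRPGR was at 179.6 CPM in the right uninjected area of NHP2, against 0 in the left one. huRPE65 was at 588.9 CPM in the left NHP1 library labelled uninjected, against 0.0366 in the right one. coRPGR was at 25.9 CPM in the right mScarlet bleb, against 0.436 in the left one. The members' values in these libraries, and in their rods with and without a transgene UMI, stand in the report. Where these UMIs came from was not tested.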

How the results depend on the processing

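Counts below are of member and class combinations past the threshold, in edgeR unless said otherwise. They run over classes and mostly stand without the share of all genes that passed, so nothing about the members is read from them. The mScarlet blebs against the uninjected area gave 19 of 56, which became 38 without a filter on low counts, 25 with DESeq2 and 11 to 23 with 1 library left out, the lowest without the left uninjected library and 12 without the left mScarlet library. The hRPGR blebs against the uninjected area gave 2, which became 17 without a filter, 8 with DESeq2, 1 with doublets kept (B2M in horizontal cells lost) and 1 to 13 with a library left out, 13 without the left hRPGR and 7 without the right uninjected library. The mScarlet blebs against the hRPGR blebs gave 5, which became 26 without a filter, 7 with DESeq2 and 1 to 14 with a library left out, 14 without the right hRPGR library. Left against right eyes gave 0, and 4 without a filter and 0 to 1 with a library left out. NHP2 against NHP1 uninjected gave 0, and 5 without a filter and 0 to 5 with a library left out. Without a filter 5.03% of 21858 genes passed in rods for the mScarlet blebs, so the rise was not of the members alone. The cause of these changes was not tested. TAPBP in rods, hRPGR bleb against uninjected area, ran from -0.095 without the right to 0.75 without the left hRPGR library.

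With the eye as a replicate block the counts were 15 for the mScarlet and 2 for the hRPGR blebs against the uninjected area, 4 between the blebs and 7 for NHP2 against NHP1. For the rods of the mScarlet blebs the block took the count from 5 to 0. Left against right eyes were paired by area in the fit itself.

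The mean CPM of the 8 members in mScarlet rods was 254.7, and 265.9 without the TMM factor. The mean share of thinned mScarlet rods with a UMI of a member was 40.4%, and 54.1% unthinned. With 2 libraries from 1 animal per group, the spread between animals was not measured. In rods PSMB10 passed under none of these settings, and TAPBP passed for the mScarlet blebs with DESeq2, without a filter and without either hRPGR library.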
